A study of Homo sapiens with 6 samples.

Results

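The genes described here belong, by name, to families whose best known members are proteins of the pre-mRNA splicing machinery, and some of the LSM genes act elsewhere in RNA metabolism. They were taken as every gene symbol of the SRSF, HNRNP, SNRP, SF3A and SF3B, U2AF and LSM families that the 4 lists of RPB1 and phospho-Ser2 RPB1 regions assign to a region, leaving out pseudogene symbols. They came to 70 of the 16428 symbols in those lists, with 12 SRSF, 22 HNRNP, 12 SNRP, 9 SF3, 2 U2AF and 13 LSM genes. The SHP-1 WT list of RPB1 held 327 of its 46045 regions at these genes and the SHP-1 KO list 340 of 41605, whereas phospho-Ser2 regions numbered 754 of 102674 in SHP-1 WT and 660 of 81012 in SHP-1 KO. The choice used the names and the presence of at least 1 assigned region, and it used no level of enrichment. The 6 coding genes of these families without any region, U2AF1, HNRNPA1L3 and HNRNPCL1 to HNRNPCL4, are therefore not among them.

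The cells were HepG2, a human hepatoma line, grown without treatment. SHP-1 WT cells were the CRISPR control of the study and SHP-1 KO cells were CRISPR knockouts of the tyrosine phosphatase SHP-1, which the PTPN6 gene encodes. The study made its knockout lines as single-cell cultures with guides in the exons of the phosphatase domain, and the labels do not name the clone used here, so the knockout and whatever sets a clone apart cannot be told apart. ChIP-seq was done with an antibody to RPB1, the largest subunit of RNA polymerase II, and an antibody to RPB1 phosphorylated at serine 2 of its C-terminal repeats, with 1 library for each antibody and genotype. With 1 library per condition there is no replicate spread and no test, and each difference between SHP-1 KO and WT compares those libraries.

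Splicing removes introns from transcripts while RNA polymerase II is still moving along the gene. The Sm proteins of the SNRP genes and the related LSM proteins form rings around the small nuclear RNAs, the U2AF proteins and the SF3 complexes recognise the 3′ splice site and the branch point, and SR and hnRNP proteins bind exons and introns to promote or block the use of a site. Serine 2 phosphorylation accumulates as the polymerase elongates and is known to peak near the ends of genes, where it helps to recruit factors that cut and polyadenylate the transcript. Genes of the SR and hnRNP families are broadly and highly transcribed in dividing cells.

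Each region carries its fold enrichment over the input DNA at its summit, as the peak caller MACS2 gave it. This is a ratio within a library and is not calibrated between libraries, so SHP-1 KO against WT is given on the log2 scale after subtracting the median of all genes. The files call a region a promoter region when it lies within 1 kb of any transcript start of a gene. Of 121 WT RPB1 regions with that label at the splicing factor genes without the read-through symbol HNRNPUL2-BSCL2, 48.8% had their summit within 1 kb of the start of the gene's canonical transcript, against 56.0% over all coding genes, and for phospho-Ser2 the shares were 26.1% and 30.9%. Values for RPB1 at starts and phospho-Ser2 at ends are therefore given both by the files' assignment and by position. By position, the start zone is 1 kb on either side of the canonical start in GENCODE 44. The end zone runs from 1 kb before to 3 kb after the canonical end, without summits within 1 kb of another coding gene's start. RPB1 at gene ends, coverage, the zone of the strongest summit and the family medians are given by position alone. The read-through symbol was left out by position, which leaves 69 genes.

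The upstream sequences of 5 genes are shown because their start regions mark the range of what follows. HNRNPAB had the highest RPB1 start summit of a gene that shares its start with no other, SRSF1 and SNRPB had higher values in SHP-1 KO than in WT even before centring, and SF3A1 and SNRPN had the lowest values in SHP-1 KO relative to WT. Each is the 250 bases before the RefSeq start (GRCh38.p14), read 5′ to 3′ along the gene, with capitals for exact matches on either strand to 8 motifs: the GC box GGGCGG, the ETS motif CCGGAAG, the CCAAT box (spelled as its name), the TATA box TATAAA, the NRF1 motif GCGCATGC, the YY1 motif AAGATGGC, the CRE motif TGACGTCA and the E2F motif TTTCCCGC.
HNRNPAB, chr5:178204283-178204532, + strand: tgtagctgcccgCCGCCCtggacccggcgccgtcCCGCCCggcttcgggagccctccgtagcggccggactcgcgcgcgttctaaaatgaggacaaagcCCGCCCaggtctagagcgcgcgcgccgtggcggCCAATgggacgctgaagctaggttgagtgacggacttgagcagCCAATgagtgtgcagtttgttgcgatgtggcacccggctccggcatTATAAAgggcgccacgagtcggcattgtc
SRSF1, chr17:58007247-58007496, - strand: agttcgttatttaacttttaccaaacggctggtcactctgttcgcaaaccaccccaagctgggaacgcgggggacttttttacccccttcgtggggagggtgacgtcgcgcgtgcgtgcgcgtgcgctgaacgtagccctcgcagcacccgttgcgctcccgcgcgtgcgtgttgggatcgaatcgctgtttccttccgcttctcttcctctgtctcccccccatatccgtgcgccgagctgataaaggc
SNRPB, chr20:2470790-2471039, - strand: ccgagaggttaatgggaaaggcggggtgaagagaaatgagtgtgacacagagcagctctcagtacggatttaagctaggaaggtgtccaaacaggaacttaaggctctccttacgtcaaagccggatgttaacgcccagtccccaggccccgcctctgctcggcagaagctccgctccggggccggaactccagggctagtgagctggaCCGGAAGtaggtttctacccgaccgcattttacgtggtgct
SF3A1, chr22:30356895-30357144, - strand: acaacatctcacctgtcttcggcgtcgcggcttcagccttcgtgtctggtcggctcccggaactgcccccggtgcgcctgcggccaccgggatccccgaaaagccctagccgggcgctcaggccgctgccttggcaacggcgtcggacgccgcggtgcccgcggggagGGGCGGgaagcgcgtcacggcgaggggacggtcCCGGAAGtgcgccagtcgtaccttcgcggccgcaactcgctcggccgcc
SNRPN, chr15:24954737-24954986, + strand: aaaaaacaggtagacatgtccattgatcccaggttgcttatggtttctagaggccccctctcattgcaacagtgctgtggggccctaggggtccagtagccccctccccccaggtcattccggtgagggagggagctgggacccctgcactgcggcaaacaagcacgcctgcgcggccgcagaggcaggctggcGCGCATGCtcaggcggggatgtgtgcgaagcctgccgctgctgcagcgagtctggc

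Of the 63 members with an entry in the RefSeq promoter table, 42 (66.7%) held a GC box in this window of any listed start, against 75.8% of 9347 genes with a WT RPB1 start region and 46.2% of all 27305 genes in the table. The ETS motif stood in 21 members (33.3%), against 20.4% and 10.2%. The CCAAT box stood in 30 members (47.6%), against 42.0% and 37.0%, and the NRF1 motif in 7 (11.1%), against 6.08% and 3.22%. The TATA box was found in 7 members (11.1%), against 7.17% and 13.05%. E2F stood in 3 (4.76%), against 2.92% and 1.70%, and YY1 in 1 (1.59%), against 2.38% and 1.64%. CRE stood in 0, against 3.58% and 2.03%. Every family held an ETS match, but most of the 21 members were SNRP or SF3 genes. These were SNRPB, SNRPB2, SNRPE, SNRPG, SNRPC, SNRPA1 and SNRPD2, and SF3A1, SF3A2, SF3A3, SF3B2, SF3B4 and SF3B6. CpG dinucleotides numbered 24 at the median of the richest window of each member (range 2 to 38), against 23 for genes with a WT RPB1 start region and 12 for all genes. These are matches of letters and say nothing of binding.

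RPB1 stood at the start of most of the splicing factor genes. A summit lay in the start zone of 65 of 69 genes in SHP-1 WT and of 66 in SHP-1 KO. Since a gene needed a region to be counted, the shares over all 75 coding symbols of the families are the ones to read, 86.7% in SHP-1 WT and 88.0% in SHP-1 KO, against 58.5% and 56.9% of 20007 coding genes. A region reached over the start itself in 67 genes in each genotype. By the files' assignment a promoter RPB1 region was listed for 62 of 70 symbols in SHP-1 WT and 64 in SHP-1 KO. The 6 symbols without such a region in either genotype were HNRNPDL, HNRNPUL2, SF3A2, SF3B6, SNRPF and SNRPN, and all 6 had a region at the start that the files assign to a neighbouring or overlapping gene. For HNRNPUL2, which codes for an hnRNP U-like protein, that region (fold enrichment 102 in SHP-1 WT and 88.3 in SHP-1 KO) is listed under HNRNPUL2-BSCL2. SF3B6, a small SF3B subunit at the branch point, had 20.4 in SHP-1 WT and 11.8 in SHP-1 KO under FAM228B, and SF3A2, an SF3A subunit, had 40.7 and 23.6 under MIR6789. In 20 of the 69 genes another coding gene starts within 1 kb, so the enrichment at these starts is shared.

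Start enrichment differed by family. The SRSF genes had a median of 49.6 in SHP-1 WT (11 genes with a summit, range 24.4 to 81.2) and the HNRNP genes 45.8 (19 genes, 11.9 to 102), against 28.7 over 11702 coding genes. Their medians lay at the 84.7th and 80.6th percentile of coding genes with a start summit in SHP-1 WT. SRSF6, an SR protein of exonic enhancers, was highest among SR genes with 81.2 in SHP-1 WT and 81.8 in SHP-1 KO, followed by SRSF2 (63.9 and 55.9) and SRSF9 (60.2 and 37.3). SRSF7, which couples splicing to export, had 52.6 and 38.7. HNRNPAB, an RNA-binding protein of the A/B group, had 92.1 and 86.4, HNRNPA2B1 75.7 and 45.0, and HNRNPH1, which binds runs of G, 66.7 and 41.4. HNRNPA2B1 lay at the 97.6th percentile of coding genes with a start summit in SHP-1 WT and at the 92.4th of those with one in SHP-1 KO.

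The SNRP and SF3 genes had lower starts in SHP-1 WT, and the LSM genes lay between. SNRP genes had a median of 23.9 in SHP-1 WT (12 genes, 13.6 to 54.7), SF3 genes 24.5 (8 genes, 17.9 to 44.5) and LSM genes 33.1 (13 genes, 7.69 to 57.2). In SHP-1 KO the order was not the same, since the LSM median of 28.8 was not below the HNRNP median of 28.2. The other KO medians were 38.0 for SRSF, 20.9 for SNRP and 18.4 for SF3, against 20.6 over coding genes. Within the SNRP family SNRPN had 54.7 and SNRPD3, an Sm ring protein, 35.5, and the other 10 lay between 13.6 and 30.3. In the SF3 family SF3A1 had 44.5, SF3B2 41.9 and SF3B4 30.7. In the LSM family LSM7 had 57.2, LSM1 51.1 and LSM14A 43.2, whereas LSM11, a subunit of the U7 particle that serves histone transcripts, had 7.69 in SHP-1 WT and 6.82 in SHP-1 KO. U2AF2, the large U2AF subunit that binds the polypyrimidine tract, had 32.4 and 28.6, and U2AF1L4 lay lower, with 9.68 in SHP-1 KO. The small subunit U2AF1, without a region in any list, has a near-identical second copy in hg38, so its empty entry is uncertain.

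**Figure D1:**
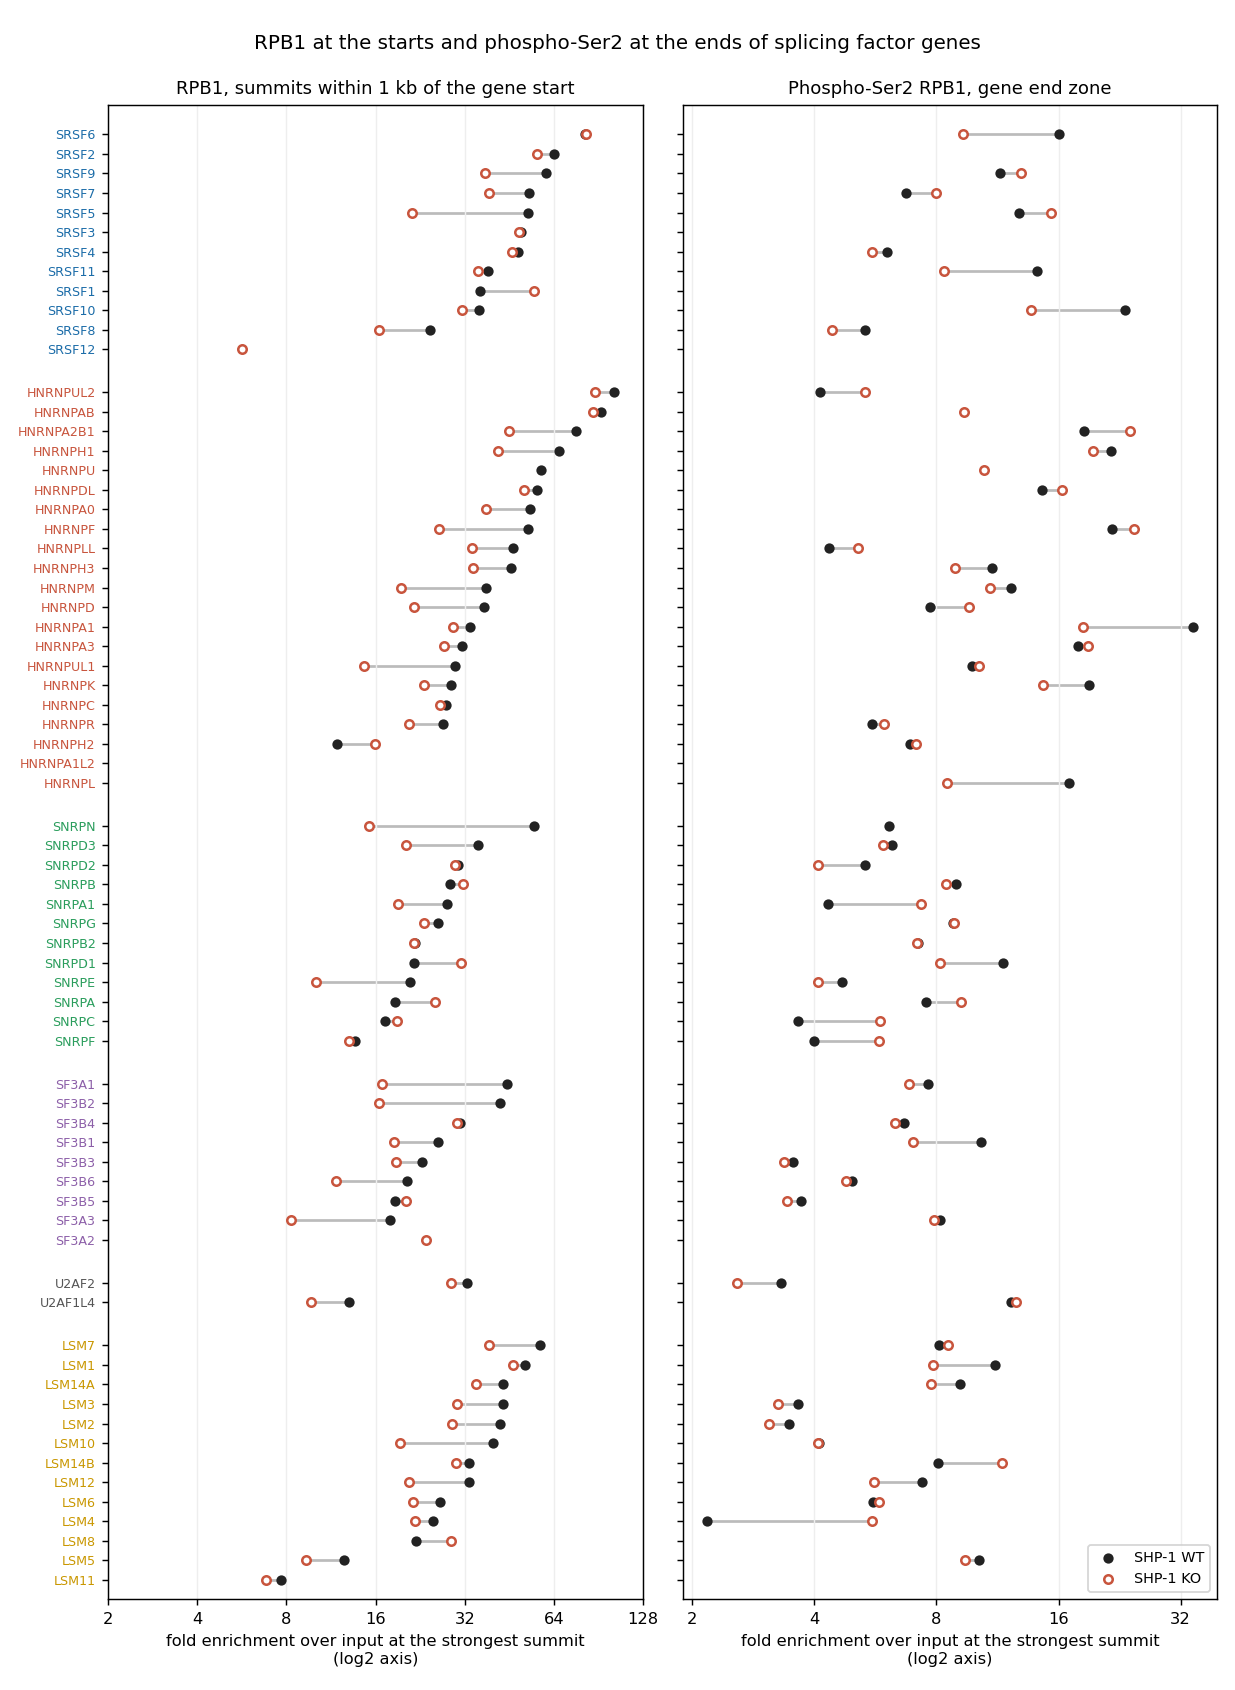
Fold enrichment over input (log2 axis) of RPB1 at the start (left) and of phospho-Ser2 RPB1 in the end zone (right) for the 69 splicing factor genes, grouped by family, with filled points for the SHP-1 WT library and open points for the SHP-1 KO library. In SHP-1 WT most SRSF and HNRNP starts sit right of most SNRP and SF3 starts. SNRPN shows the widest gap between the genotypes at the start, from 54.7 to 15.2.

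Phospho-Ser2 was arranged the other way in most members, with its strongest summit toward the end of the gene. In SHP-1 WT the strongest phospho-Ser2 summit lay in the end zone in 41 of 66 members (62.1%), in the body in 13 and in the start zone in 12, and in SHP-1 KO the counts were 41, 9 and 16 of 66. The families differed: of 11 SRSF genes 6 had it in the end zone and 5 in the start zone in both genotypes. In SHP-1 KO 3 of 9 SF3 genes had it in the end zone and 5 in the start zone. Among coding genes with a WT RPB1 start region the end zone held it in 49.9% of genes in SHP-1 WT and 50.3% in SHP-1 KO. RPB1 had its strongest summit in the start zone in 62 of 66 members in SHP-1 WT and 65 of 68 in SHP-1 KO. In 48 members with phospho-Ser2 in both zones the end exceeded the start by a median of 0.53 on the log2 scale in SHP-1 WT, and in 46 members by 0.52 in SHP-1 KO, against 0.37 and 0.35 over all genes. By the files' assignment the medians were 0.50 over 37 members in SHP-1 WT and 0.22 over 35 in SHP-1 KO, against 0.10 and 0.09. The end summits lay a median of 1118 bases past the annotated end in SHP-1 WT (56 members) and 993 in SHP-1 KO (57 members), against 1106 and 1021 for coding genes with a WT RPB1 start region.

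By position the highest end enrichments lay at hnRNP and SR genes. HNRNPA1, a general splicing repressor that starts next to CBX5, had 34.4 in SHP-1 WT and 18.4 in SHP-1 KO. SRSF10 had 23.3 and 13.7, HNRNPF 21.6 and 24.5, HNRNPH1 21.5 and 19.4, HNRNPK 19.1 and 14.6, and HNRNPA2B1 18.5 and 24.0. The summits of SRSF10 and HNRNPK, and those of HNRNPF and HNRNPA2B1 in SHP-1 KO, lie in regions that the files assign to other genes. The strongest phospho-Ser2 region that the files give SRSF10 had 5.49 in SHP-1 WT and 5.46 in SHP-1 KO. For HNRNPK it had 6.98 and 7.76. By the files' own 3′ end label the 5 highest WT genes were HNRNPH1 (21.5), HNRNPA2B1 (18.5), SRSF6 (16.1), HNRNPDL (14.6) and SF3B3 (14.3). SF3B3, a scaffold subunit of SF3B, had only 3.55 in the end zone by position, since its 14.3 summit lies away from the canonical end. The family medians in SHP-1 WT were 12.1 for SRSF (8 genes), 13.4 for HNRNP (16 genes), 6.16 for SNRP (12 genes), 6.66 for SF3 (7 genes) and 7.36 for LSM (11 genes), against 5.37 over 8803 coding genes. The families lay closer together in SHP-1 KO. There the medians were 8.83 for SRSF, 10.3 for HNRNP, 7.17 for SNRP, 6.31 for SF3 and 5.77 for LSM, against 5.35 over 8000 coding genes.

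The families also differed in how much of the gene the regions covered. In SHP-1 WT phospho-Ser2 regions covered at least 50% of the gene in 26 of 69 members (37.7%), against 12.6% of 11702 coding genes with a WT RPB1 start region, and in SHP-1 KO in 24 (34.8%), against 10.5%. Of those 26 genes, 22 were SRSF or HNRNP genes, out of 33 in these families, and 3 were SNRP or LSM genes out of 25. HNRNPA2B1 and HNRNPH1 were covered over 99.3% of their length in SHP-1 WT, and over 99.2% and 100% in SHP-1 KO. SRSF3 was covered over 97.1% and 94.4%, and HNRNPC, which binds uridine runs and spans 60.3 kb, over 97.3% and 97.5%. LSM6 (3.72% and 3.31%), SNRPC (4.35% and 5.23%) and SNRPA1 (1.19% and 4.11%) were covered over little of their length. Coverage was 0 in both genotypes for HNRNPA1L2, SRSF12, LSM11 and U2AF1L4, and 0 in SHP-1 WT for HNRNPH2 and SNRPF, so uncovered genes occur in the SRSF and HNRNP families too. Of these genes only SRSF12 had no phospho-Ser2 region at all, assigned or by position. HNRNPH2, for example, had 6.87 in its end zone in SHP-1 WT, and U2AF1L4 had 12.2. Both of these summits lie in regions assigned to other genes. Members were shorter than coding genes at large, with a median of 12.9 kb against 26.9 kb for genes with a WT RPB1 start region. The median length was 7.92 kb for SRSF, 12.1 kb for HNRNP, 13.1 kb for SNRP, 15.8 kb for LSM and 16.9 kb for SF3 genes. The part of length in the difference between families was not tested. Among genes of up to 20 kb with a WT RPB1 start region, the share covered over at least 50% in SHP-1 WT was 44.7% of 47 members and 24.9% of 4823 coding genes.

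Some members carried unbroken regions far longer than the median width of 400 bases for member phospho-Ser2 regions in SHP-1 WT. HNRNPC had a phospho-Ser2 region of 23744 bases in SHP-1 WT, at chr14:21229255-21252998, and of 30687 bases in SHP-1 KO, at chr14:21229277-21259963, which was the 5th longest of 81012. SRSF1 had a region of 17605 bases in SHP-1 WT, at chr17:57987740-58005344, which runs from inside SRSF1 past its end toward VEZF1. The longest RPB1 regions of members lay at SRSF6, with 5072 bases in SHP-1 WT, just past the annotated end, and 8162 in SHP-1 KO, from inside the gene to past its end.

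The comparison of the genotypes asks whether polymerase at these genes differed when SHP-1 was knocked out. At promoters, by the files' assignment, all 11250 genes with a region in both lists had a median log2 SHP-1 KO/WT of -0.46, and the 62 members lay 0.16 above it (39 of 62 above). After centring, 0 members were at least 2-fold lower, against 2.27% of all genes, and 2 were at least 2-fold higher, against 2.44%. By position the median over 11101 genes was -0.48 and the 64 members lay 0.18 above it (40 of 64 above), with 1 member at least 2-fold lower against 1.57% of all genes and 2 higher against 1.5%. These counts of 1 and 2 in 64 are near the background shares. Without centring, 7 of 62 members (11.3%) were at least 2-fold lower by the files' assignment, against 10.9% of all genes, and 0 were higher, against 0.684%.

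SRSF1, the founding SR protein, had an RPB1 start summit of 36.1 in SHP-1 WT and 55.0 in SHP-1 KO, which is 1.09 above the median of all genes on the log2 scale. SNRPD1, an Sm ring protein, had 21.5 and 31.0 at its start (1.00). HNRNPA2B1 was called higher by the files' assignment, from 3.73 to 6.02 (1.15), but these regions are minor ones inside the gene, and its start by position went from 75.7 to 45.0, which is -0.27 after centring. At the low end SNRPN had 54.7 and 15.2 (-1.37), SF3A1 44.5 and 16.8 (-0.92), SF3B2 41.9 and 16.5 (-0.87) and SRSF5 52.4 and 21.2 (-0.83). The median was 0.43 for SNRP genes (8 of 12 above the median of all genes), 0.29 for SRSF (8 of 11), 0.17 for LSM (8 of 13), 0.07 for HNRNP (11 of 18) and -0.17 for SF3 (3 of 8). The SF3 genes, whose products hold the branch point, thus included several of the lower starts, whereas SF3B4 had 30.7 and 30.1 and SF3B5 18.6 and 20.3.

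Presence in 1 genotype was rare at starts. By the files' assignment 0 members had a promoter RPB1 region in SHP-1 WT alone, against 7.64% of genes with a region in either, and 2 had it in SHP-1 KO alone, against 4.51%. These were SRSF12, an SR protein, at 5.66, and HNRNPH2, at 5.02. HNRNPH2 shares its start with another gene, and by position it had 11.9 in SHP-1 WT and 15.9 in SHP-1 KO. By position the 1 gene with a start summit in SHP-1 WT alone was HNRNPU (58.1), against 5.01% of genes, and those in SHP-1 KO alone were SF3A2 (23.6) and SRSF12 (5.66), against 2.36%. HNRNPU and SF3A2 did not lose or gain their start region, since a region over the start was listed in both genotypes and its summit lay outside the start zone in the other genotype: 58.1 and 49.4 for HNRNPU, and 40.7 and 23.6 for SF3A2. SRSF12 is the remaining case.

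At the 3′ ends phospho-Ser2 of members moved with that of all genes. By the files' assignment 37 members had a median of 0.03 relative to the 4480 genes compared (median of all -0.08), with 2 at least 2-fold lower against 2.54% of all genes and 0 higher against 2.19%. The lower members were LSM14A, a P-body protein (9.15 in SHP-1 WT and 3.86 in SHP-1 KO, -1.17), and SNRPD1 (11.7 and 4.87, -1.18). By position both fell short of 2-fold, with 9.15 and 7.75 for LSM14A (-0.15) and 11.7 and 8.18 for SNRPD1 (-0.43). In SHP-1 KO the files label both of these end regions as distal intergenic. Over 55 members by position the median was 0.01 (all 7350 genes, -0.09), with 0 lower against 2.29% and 1 higher against 2.29%. That gene was LSM4, a ring protein of the U6 particle, with 2.17 and 5.56 (1.44). In LSM4 a single WT region of 6615 bases has its summit outside the end zone with a fold enrichment of 10.2, and the same stretch holds several regions of at most 6.20 in SHP-1 KO. The family medians by position were -0.11 for SRSF (3 of 8 above the median of all genes) and 0.16 for HNRNP (10 of 16). They were 0.08 for SNRP (8 of 11), 0.01 for SF3 (4 of 7) and -0.03 for LSM (5 of 11).

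In gene bodies 36 members had a median of 0.00 relative to 6171 genes, with 1 lower against 1.02% and 0 higher against 1.18%. The lower gene was HNRNPF (21.6 in SHP-1 WT and 8.15 in SHP-1 KO, -1.35). Its strongest region carries different labels in the genotypes, a 5′ UTR in SHP-1 WT and the 3′ UTR of the neighbour FXYD4 in SHP-1 KO, and the end zone by position held 21.6 and 24.5. For 3′ end phospho-Ser2 by the files' assignment, 4 members were listed in SHP-1 WT alone, against 21.2% of genes with one in either, and 4 in SHP-1 KO alone, against 10.6%. By position 1 was listed in SHP-1 WT alone, SNRPN, against 15.4%, and 2 in SHP-1 KO alone, HNRNPAB and HNRNPU, against 6.88%. In HNRNPAB a phospho-Ser2 region crosses the end in both genotypes, with 12369 bases in SHP-1 WT and 12290 in SHP-1 KO. Its WT summit lies outside the zone, so HNRNPAB did not gain an end region. In HNRNPU a WT phospho-Ser2 region of 20203 bases crosses the end, has its summit outside the zone and is assigned to COX20.

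RPB1 at gene ends was more often above than below the median of all genes in SHP-1 KO. In 40 members with an RPB1 summit in the end zone in both genotypes the median log2 SHP-1 KO/WT was 0.28 above that of 3583 genes (all genes, -0.09), and 31 of 40 lay above it. The SRSF genes had a median of 0.37 (7 of 9 above), the HNRNP genes 0.30 (11 of 14), the LSM genes 0.31 (5 of 6) and the SNRP genes 0.15 (7 of 8). The SF3 genes had -0.07 (1 of 2) and the 1 U2AF gene measured, U2AF1L4, had -0.93. At the 2-fold line 0 members were lower against 3.66% of all genes and 1 was higher against 2.34%. This was SRSF11, with 3.17 in SHP-1 WT and 6.09 in SHP-1 KO (1.04). HNRNPC went from 4.59 to 7.91, HNRNPA3 from 10.3 to 17.3 and HNRNPA2B1 from 10.5 to 15.8, whereas HNRNPAB went from 10.5 to 6.15 and U2AF1L4 from 35.3 to 17.4. The only RPB1 region assigned to U2AF1L4 in each genotype is that at its start. Its end summits therefore lie in regions assigned to other genes, and they are higher than those at its start. The same assignment to other genes holds for the RPB1 end summits of LSM1 and SNRPB2 in both genotypes. It also holds for those of HNRNPK and SF3B4 in SHP-1 WT and of HNRNPUL1 in SHP-1 KO. RPB1 at ends was not compared by the files' assignment.

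**Figure D2:**
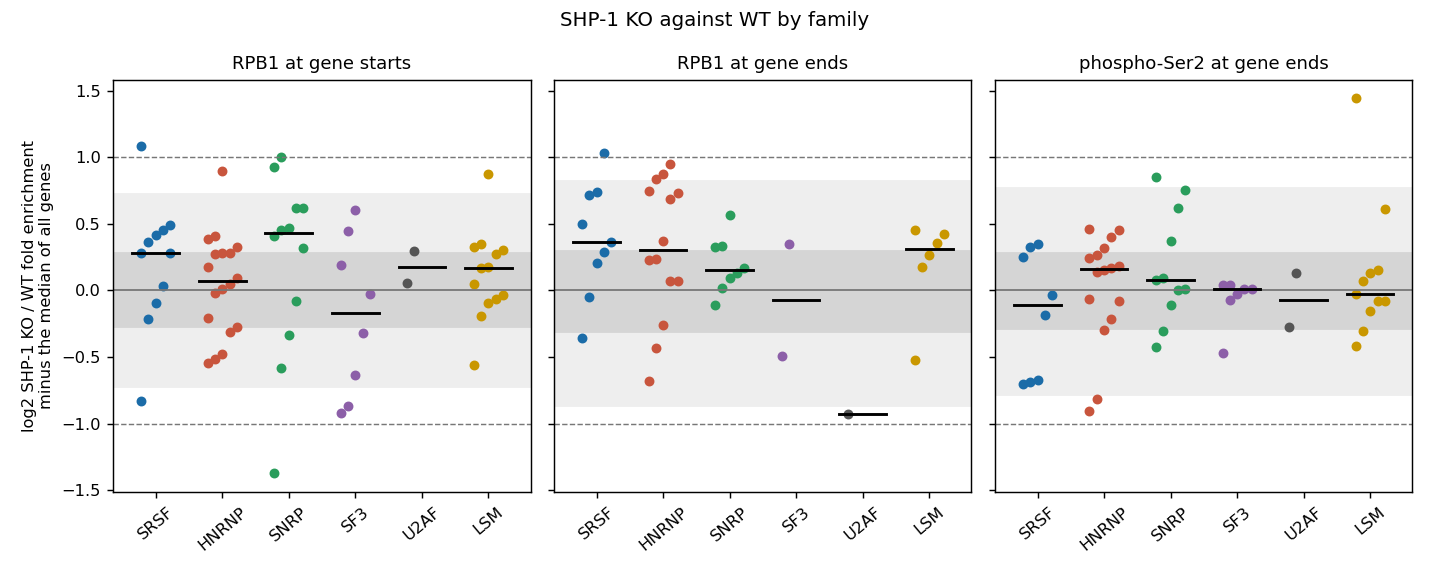
Log2 ratio of SHP-1 KO to SHP-1 WT fold enrichment for each splicing factor gene, minus the median of all genes, for RPB1 at starts, RPB1 at ends and phospho-Ser2 at ends, with a black bar at each family's median; dark and light grey bands hold the middle 50% and 90% of all genes and dashed lines mark 2-fold. RPB1 at gene ends has 31 of 40 members above the line at 0, and phospho-Ser2 at gene ends 31 of 55.

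The same direction was seen in how much of each gene RPB1 regions covered. RPB1 coverage was higher in SHP-1 KO in 45 of 68 members and lower in 22, whereas among coding genes with a WT RPB1 start region it was higher in 3707 of 11579. A gain of at least 10 percentage points was seen in 11 members, against 2.77% of 12909 coding genes with any coverage, and a loss of that size in 2, against 8.79%. Among the 33 members with WT coverage of at least 10%, 10 (30.3%) gained that much and 24 (72.7%) were higher, against 7.57% and 26.2% of 4067 coding genes. The 11 genes were HNRNPA2B1 (41.5% in SHP-1 WT and 72.0% in SHP-1 KO), HNRNPU (17.2% and 45.8%), SRSF1 (47.1% and 68.8%), HNRNPL (51.8% and 70.9%), SRSF2 (83.1% and 98.3%), HNRNPC (41.7% and 55.6%), SNRPA (43.3% and 56.2%), SNRPB (19.1% and 31.0%), SRSF9 (32.2% and 43.2%), HNRNPK (7.14% and 18.1%) and HNRNPA3 (45.0% and 55.0%). Among all 20007 coding genes HNRNPA2B1 had the 39th and HNRNPU the 48th largest gain. The losses were LSM4 (76.3% and 41.2%) and LSM7 (44.3% and 15.8%). Coverage rests on where the peak caller joins or drops weak regions, so it moves with depth and background, whose part in this was not tested.

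Phospho-Ser2 coverage was more often lower than higher in SHP-1 KO, though it was higher in a larger share of members than of coding genes. It was higher in SHP-1 KO in 26 of 65 members and lower in 39, against 27.6% higher among coding genes with a WT RPB1 start region. A loss of at least 10 percentage points was seen in 14 members (21.5%), against 14.5% of 10698 coding genes, and a gain in 2 (3.08%), against 3.22%. Among genes with WT coverage of at least 10%, the loss was seen in 14 of 54 members (25.9%) and 29.8% of 5182 coding genes, and coverage was higher in 33.3% and 24.0%, so the members' share of losses was not above that of coding genes with like coverage. The gains were SRSF1 (79.6% and 93.3%) and HNRNPD (35.1% and 46.2%). The losses were led by SNRPN (49.5% and 2.75%), SF3B6 (48.1% and 5.29%), SRSF11 (58.3% and 28.1%) and LSM4 (70.6% and 43.2%). By family, 9 of 12 SNRP genes were higher in SHP-1 KO, and 9 of 12 LSM, 8 of 11 SRSF and 6 of 9 SF3 genes were lower.

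**Figure D3:**
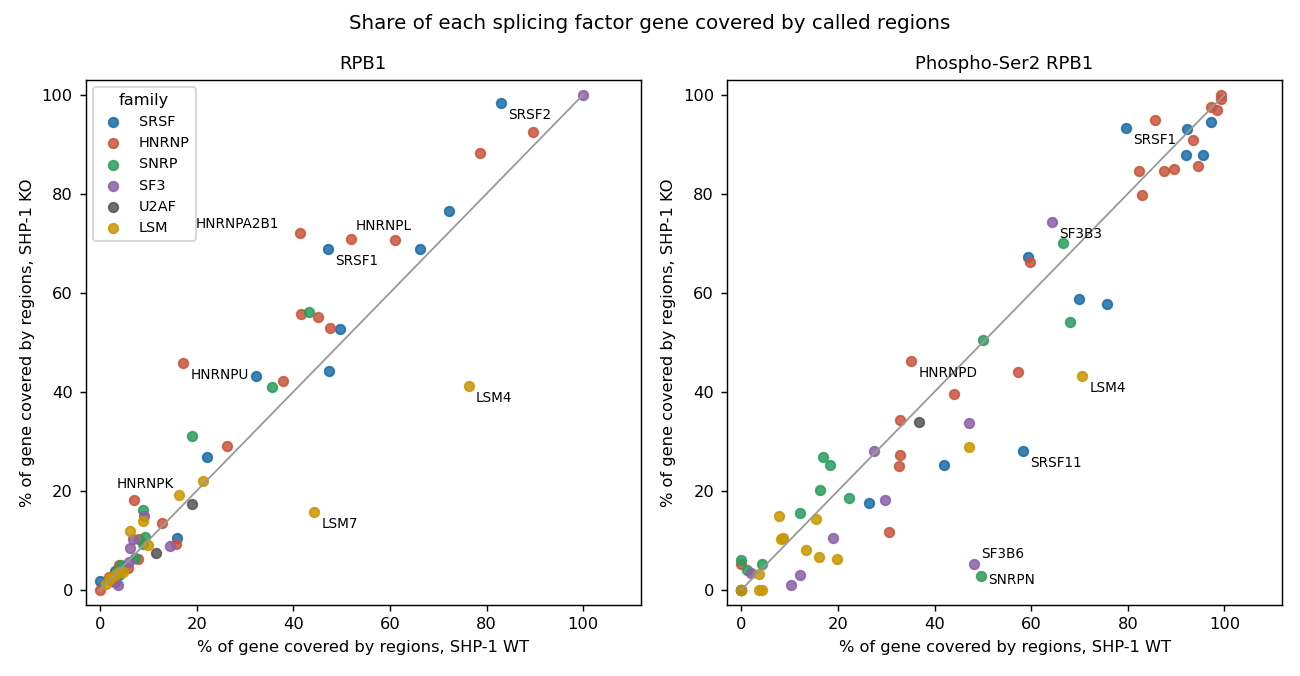
Percentage of each splicing factor gene covered by RPB1 regions (left) and phospho-Ser2 regions (right) in the SHP-1 WT library (x axis) and the SHP-1 KO library (y axis), 1 point per gene, coloured by family, with a line of equality. HNRNPA2B1, HNRNPU and SRSF1 lie well above the line for RPB1, and SNRPN and SF3B6 lie far below it for phospho-Ser2.

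SNRPN had the lowest centred RPB1 start value of the 64 members compared and, ahead of SF3B6, the largest loss of phospho-Ser2 coverage. It codes for SmN, a close relative of the Sm protein of SNRPB, and it is a known imprinted gene, transcribed from the paternal copy, whose start is shared with SNURF and with the long host transcript SNHG14 to which the files assign these regions. At the start, RPB1 had a region of 1472 bases at chr15:24954524-24955995 in SHP-1 WT with a fold enrichment of 54.7, and of 992 bases at chr15:24954594-24955585 in SHP-1 KO with 15.2. A further RPB1 region just inside the gene had 14.1 in SHP-1 WT and 5.97 in SHP-1 KO. Phospho-Ser2 at the start had 6.10 in SHP-1 WT and 7.77 in SHP-1 KO. Over the gene and its flanks 23 phospho-Ser2 regions were listed in SHP-1 WT and 3 in SHP-1 KO, and coverage went from 49.5% to 2.75%, the 53rd largest loss of 20007 coding genes. The files assign 69 phospho-Ser2 regions to SNHG14 in SHP-1 WT and 12 in SHP-1 KO. The window printed above, which ends at this start, lies within the RPB1 region of both genotypes and holds 12 CpG dinucleotides, against the median of 24 for members. SNRPB, its widely expressed relative, had 28.6 and 31.6 at the start and 8.91 and 8.43 for phospho-Ser2 at the end.

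**Figure D4:**
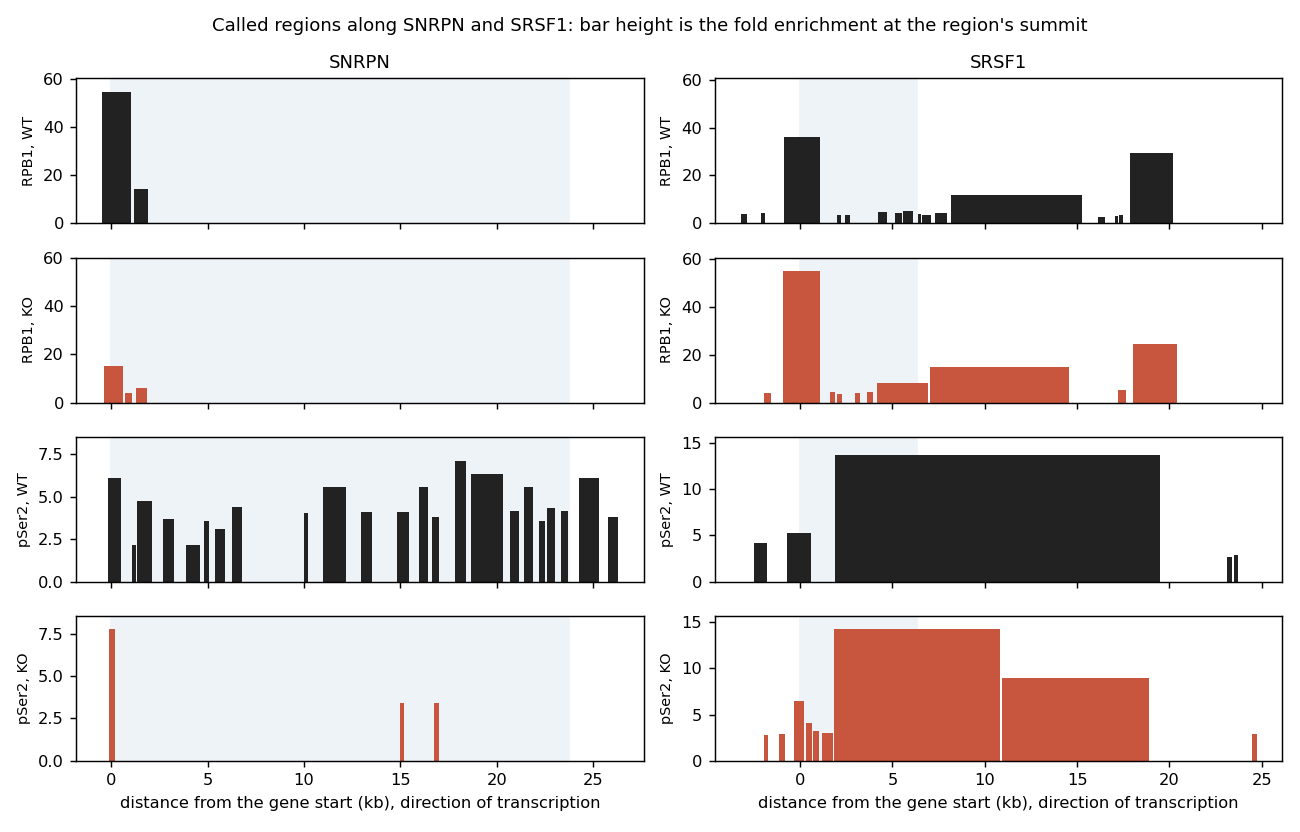
Called regions along SNRPN (left) and SRSF1 (right) by distance from the start (kb), in the direction of transcription, for RPB1 and phospho-Ser2 in each genotype; bar height is the fold enrichment at the summit, bar width the region's length, and shading the gene. Phospho-Ser2 regions along SNRPN number 23 in SHP-1 WT and 3 in SHP-1 KO, while SRSF1 keeps long phospho-Ser2 regions in both; the RPB1 region farthest from the SRSF1 start lies toward the neighbouring VEZF1 gene.

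WT regions at splicing factor genes were found again in SHP-1 KO more often than regions at large. A KO region overlapped 248 of 327 WT RPB1 regions (75.8%, Wilson 95% interval 70.9 to 80.2%), against 61.9% of all WT RPB1 regions, and 511 of 754 phospho-Ser2 regions (67.8%, 64.4 to 71.0%), against 52.2%. In promoters the RPB1 share was 86.1% (105 of 122) against 76.5% of all regions, in bodies 73.8% (79 of 107) against 47.2% and at 3′ ends 78.0% (46 of 59) against 60.1%. Distal RPB1 regions went the other way, with 46.2% (18 of 39) against 49.0%. The RPB1 promoter regions found again had a median fold enrichment of 21.0, and the others 4.23. These intervals cover counting error only, and regions of 1 gene are not independent. HNRNPC alone held 27 of the 107 RPB1 body regions in SHP-1 WT. By label, 37.3% of member RPB1 regions in SHP-1 WT were promoter regions (44.6% of all), 32.7% body (32.6%) and 18.0% 3′ end (10.7%), and in SHP-1 KO the shares were 41.5%, 34.4% and 15.9%. For phospho-Ser2 they were 36.7%, 42.3% and 14.1% in SHP-1 WT (23.9%, 53.1% and 14.0% of all) and 35.5%, 42.6% and 16.2% in SHP-1 KO.

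The 6 members on chromosome arm 1p were HNRNPR, LSM10, SF3A3, SRSF4, SRSF10 and SRSF11. Their RPB1 start values relative to the median of all genes ranged from -0.64 to 0.42 with a median of 0.19, against 0.18 for the 58 members elsewhere and -0.07 for 653 coding genes on the arm. At the low end stood SF3A3 (17.9 in SHP-1 WT and 8.27 in SHP-1 KO) and LSM10 (39.7 and 19.4), and the SR genes SRSF4 (48.2 and 46.3), SRSF10 (35.8 and 31.3) and SRSF11 (38.5 and 35.6) differed less.

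The other genes of the splicing pathway, 79 genes such as PRPF3 that belong to none of the families above, gave a background of the same kind. A start RPB1 summit was listed for 78 of them in SHP-1 WT, with a median of 27.2, and for 77 in SHP-1 KO, with 20.1. Their RPB1 starts lay 0.07 above the median of all genes (44 of 76 above, 0 at least 2-fold lower and 4 higher), their phospho-Ser2 ends 0.02 (33 of 64 above, 2 lower and 2 higher) and their RPB1 ends 0.14 (22 of 32 above, 2 lower and 0 higher). Phospho-Ser2 covered a median of 9.66% of these genes in SHP-1 WT, against 35.1% for the members. In SHP-1 KO the medians were 10.7% and 27.2%. The families differed, with WT medians of 75.6% for SRSF and HNRNP genes together, 17.7% for SNRP and 8.56% for LSM genes. The part of gene length in this difference was not tested.

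The libraries carried the marks of HepG2 cells. All 10 liver markers, among them ALB, AFP and APOB, had an RPB1 region over the gene in both genotypes, and of 7 markers of blood, connective tissue and neurons 2 had any RPB1 coverage in SHP-1 WT and 1 in SHP-1 KO. Coverage of some liver markers was lower in SHP-1 KO, with phospho-Ser2 over 87.1% of FGB in SHP-1 WT and 6.73% in SHP-1 KO and over 100% and 54.6% of APOA1, and RPB1 over 88.5% and 35.9% of TTR. The part of this difference between the libraries in the results above was not tested. RPB1 regions covered 0.562% of PTPN6, the targeted gene, in SHP-1 WT and none of it in SHP-1 KO, with no summit at its canonical start in either, so polymerase occupancy there does not check the knockout.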

How the data were processed

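The ChIP-seq data comprised 1 library per antibody and genotype of HepG2 cells, with 1 input library per genotype that has no processed list here. According to the methods and the labels, the authors trimmed reads with Trimmomatic, aligned them to GRCh38/hg38 with BWA and ran MACS2 on each library, with the genotype's own input as background, to obtain narrow peaks; versions are not given in the sources used here. The authors' lists hold the fold enrichment (a ratio over input) and the −log10 p-value and q-value of each region, and the deposited values were used as they stand. A deposited table of the authors' own csaw comparison, with numbers of windows up and down, p-values and directions, was not used.

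Members were chosen by symbol; the members and the gene lists were chosen with earlier results of these data known. Per gene the strongest region of a class, or the strongest summit of a zone by position (GENCODE 44 canonical transcript), was compared as log2 SHP-1 KO/WT minus the median of all genes, and 2-fold was the line for a call. Of 285 transcripts named for member regions, 282 are in GENCODE 44. Coverage is the share of the transcript under merged regions. The genes named were the 3 highest promoter RPB1 genes of each family, those past 2-fold, those with promoter RPB1 in 1 or neither genotype, the 5 highest 3′ end phospho-Ser2 genes and those on 1p, and others were named after their values were seen. The procedure was tested on simulated data with known fold changes. The work was done with SciPy 1.17.1, NumPy 2.4.6, pandas 2.3.3, Matplotlib 3.10.9 and Python 3.11.15. The lists give no read depth, so no precision per region could be set; Wilson intervals on shares cover counting error only. The alternatives are in the closing section, and zones by position and coverage were added after seeing the data.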

Additional observations from a re-analysis of the deposited data

How the results depend on the processing

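Leaving out chromosome arm 1p, or SNRPN and the read-through symbol, moved no count, share or median beyond its tolerance (1.5 times for counts and coverage, the Wilson interval for shares, 0.25 on the log2 scale for medians), and the promoter limit of 1 kb changed nothing because the label already has it. Restricting the lists to −log10 q of at least 5 gave promoter shares of 47.5% in SHP-1 WT RPB1, 48.6% in KO RPB1 and 42.8% in KO phospho-Ser2, body shares of 26.7%, 26.1%, 37.8% (WT phospho-Ser2) and 30.0% (KO phospho-Ser2), a 3′ end share of 20.0% in KO phospho-Ser2, overlaps of 80.6% (RPB1) and 57.6% (phospho-Ser2), 1 member higher for promoter RPB1, 1 lower for 3′ end phospho-Ser2, and median phospho-Ser2 coverage of 22.3% in SHP-1 WT and 16.02% in SHP-1 KO. A 3′ UTR label alone gave 3′ end shares of 13.8% (WT RPB1), 11.5% (WT phospho-Ser2) and 12.6% (KO phospho-Ser2) and an end over promoter median of 0.22 in SHP-1 WT. A reciprocal overlap of 50% gave 41.6% for RPB1 and 34.0% for phospho-Ser2. These overlaps and those at the stricter q-value are of member regions and have no share over all regions beside them. Without centring the promoter RPB1 median was -0.30, with 7 members lower and 0 higher. A 1.5-fold line gave 5 lower and 9 higher of 62 for promoter RPB1 (9.29% and 10.3% of all genes), 6 lower and 2 higher of 37 for 3′ end phospho-Ser2 (10.4% and 9.67%) and 2 lower of 36 for body phospho-Ser2 (6.08%). Length-weighted means gave 1 lower and 0 higher for promoter RPB1 and 1 lower for 3′ end phospho-Ser2. Zones by position gave 1 lower for RPB1 starts, 0 lower and 1 higher for phospho-Ser2 ends, 0 lower for bodies and an end over start median of 0.52 in SHP-1 KO; there HNRNPA2B1 turned to -0.27 and HNRNPF in the body to 0.32, which follows from the different regions these zones compare, and the cause of the other changes was not tested. The counts of members whose coverage changed by 10 points stayed within 1.5 times at the stricter q-value, without 1p and among genes of at least 5 kb. No paired analysis was possible because each condition has 1 library and no result comes from a test. Leaving out a replicate could not be done for the same reason.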
